A study of Mus musculus with 15 samples.

Results

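The suppressor of cytokine signalling (SOCS) family was followed in MH-S cells, a murine alveolar macrophage line transformed with SV40. Its 8 members, *Socs1* to *Socs7* and *Cish*, were taken by their Ensembl identifiers and are 8 of the 78317 gene identifiers in the count table, of which 16654 were tested. RNA-seq libraries were made from 15 wells in 5 groups of 3. M0 cells received medium only, M1 cells received 1 µg/mL lipopolysaccharide (LPS) with 20 ng/mL interferon-γ (IFN-γ), and M2 cells received 20 ng/mL interleukin-4 (IL-4). The other two groups received microrods, rod-shaped carriers built from calcium phosphate (CaP) or silica (SiO2) nanoparticles with alginate, protamine and carboxymethyl chitosan, at 0.1 mg/mL. Polarization and microrod exposure lasted 24 h. The 3 replicates of each microrod group stand for 3 separately made particle batches, while all wells came from 1 cell passage of 1 line, so the spread between replicates may be technical. The libraries are bulk RNA, in which fewer responding cells and less RNA per cell cannot be told apart.

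SOCS proteins are intracellular brakes on cytokine receptors. Cytokine binding activates Janus kinases (JAKs), which phosphorylate STAT transcription factors, and activated STATs induce *Socs* genes, whose products then bind the receptor or its kinase through an SH2 domain. A C-terminal SOCS box recruits elongins and cullin 5, so that bound proteins are ubiquitinated. SOCS1 and SOCS3 also block JAK activity directly, and both are well known in macrophages, SOCS1 for restraining interferon and IL-4 signals and SOCS3 for restraining signals through gp130. CIS, the product of *Cish*, and SOCS2 are best known as feedback products of STAT5. SOCS4 and SOCS5 have been linked to the epidermal growth factor receptor, and SOCS6 and SOCS7 to insulin receptor and adaptor proteins.

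Promoter windows of 300 bases (250 before and 50 after the start of the gene, RefSeq, build GRCm38.p6) were at hand for 4 members, *Socs1*, *Socs3*, *Socs4* and *Cish*. The stretches below are shown because 3 of these genes rose in polarized cells and *Socs4* did not. They were searched on both strands for TTCNNNGAA, the palindrome to which most STATs bind, for the wider form preferred by STAT6, with 4 bases between TTC and GAA, and for a pair of GAAA runs with 2 bases between them, the repeat read by interferon regulatory factors. Capitals mark the matches, and lines run 5′ to 3′ on the strand of the gene.
Socs1, chr16:10785537-10785636, minus strand, bases -100 to -1: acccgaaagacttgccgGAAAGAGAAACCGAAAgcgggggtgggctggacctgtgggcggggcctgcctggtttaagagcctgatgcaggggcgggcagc
Socs3, chr11:117969467-117969566, minus strand, bases -200 to -101: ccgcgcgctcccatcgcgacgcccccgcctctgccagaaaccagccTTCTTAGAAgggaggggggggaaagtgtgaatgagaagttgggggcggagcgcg
Socs4, chr14:47276820-47276919, plus strand, bases -100 to -1: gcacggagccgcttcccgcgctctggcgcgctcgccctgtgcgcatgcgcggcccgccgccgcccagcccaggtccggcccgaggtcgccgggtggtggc
Cish, chr9:107296559-107296658, plus strand, bases -100 to -1: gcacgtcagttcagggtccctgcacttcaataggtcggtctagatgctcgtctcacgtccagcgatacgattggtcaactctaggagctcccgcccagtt
Cish, chr9:107296659-107296678, plus strand, bases 1 to 20: TTCCTGGAAagTTCTTGGAA
The *Socs1* window held 2 overlapping matches to the GAAA repeat, at bases -83 to -74 and -77 to -68. At least 2 such matches stood in 0.225% of the 32851 promoter windows, and at least 1 in 3.44%. The *Socs3* window held 1 TTCNNNGAA match, at bases -154 to -146, as did at least 1 position in 8.3% of all windows. The *Cish* window held 2, in the first transcribed bases, which 0.457% of windows equalled or exceeded. The *Socs4* window held none of the 3 motifs. The STAT6 form, present in 6.95% of all windows, was in none of the 4 windows. A match is a run of letters and not a measured binding site.

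Libraries held 8459643 to 68750050 counts, and M2 replicate 2 had the lowest scaling factor of the 15 (0.885). All 13 macrophage markers were detected over the series, with a summed level of 1712 to 2361 CPM (counts scaled to a common library size) in M2, 2794 to 3756 in M0 and 2790 to 3548 in the other groups, although *Marco* was at 0 in 6 libraries and *Siglecf*, which marks alveolar macrophages, reached at most 0.478 CPM and was at 0 in 4. The epithelial, fibroblast and T cell lists summed to at most 0.232 CPM in any library, and the endothelial list to 0.921 to 1.77 in M2, 1.26 to 1.55 in M1 and 0.116 to 0.846 in M0. The B cell list summed to 9.04 to 14.4 CPM in M1 and 1.13 to 1.71 in M2 against 0.463 to 1.08 in M0, carried by *Cd79b*, with *Ms4a1* near 0. The neutrophil list summed to 2.06 to 3.76 CPM in M1 and 1.71 to 2.52 in M2 against 0.606 to 1.496 in M0. Its highest gene was *Csf3r*, at up to 2.32 CPM, while *S100a9* was at 0 in all 15 libraries and *Ly6g* in 14. The highest endothelial gene was *Pecam1*, at up to 1.71 CPM. The part of these marker lists in the M1 and M2 results was not tested. All 8 members passed the filter on low counts, but *Socs1*, *Socs2* and *Cish* had only 8, 4 and 6 of the 15 libraries over its limit of 0.672 CPM. These were polarized libraries, except CaP replicates 2 and 3 for *Socs1*, at 0.855 and 0.897 CPM. Those 3 members were near the detection limit in most other libraries, so the number of members that passed is no result.

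Called differences from M0 were found for *Socs1*, *Socs2*, *Socs3* and *Cish* under polarization. In M1, *Socs1*, *Socs2*, *Socs3* and *Cish* rose over M0, which is 4 of 8 members against 9.7% of all genes called higher and 14.1% called in either direction (edgeR quasi-likelihood test, with a call needing an adjusted p below 0.05 together with a log2 fold change, log2FC, beyond 0.5 in size). In M2, *Socs1* and *Cish* rose, 2 of 8 members against 2% called higher and 4.13% in either direction. *Socs1*, *Socs2* and *Cish* needed M1 or M2 libraries, where they were high, to pass the filter on low counts. The shares of members called in comparisons with M1 or M2 are thus partly set by the filter. With at least 10 counts required in every library, which removes those 3, 1 of 5 was called in M1 (14.4% of all genes) and 0 of 5 in M2 (4.39%). *Socs4* to *Socs7* kept group means between 3.01 and 10.1 CPM in all 5 groups, and none was called against M0. All comparisons with M0 share the same 3 control libraries.

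**Figure D1:**
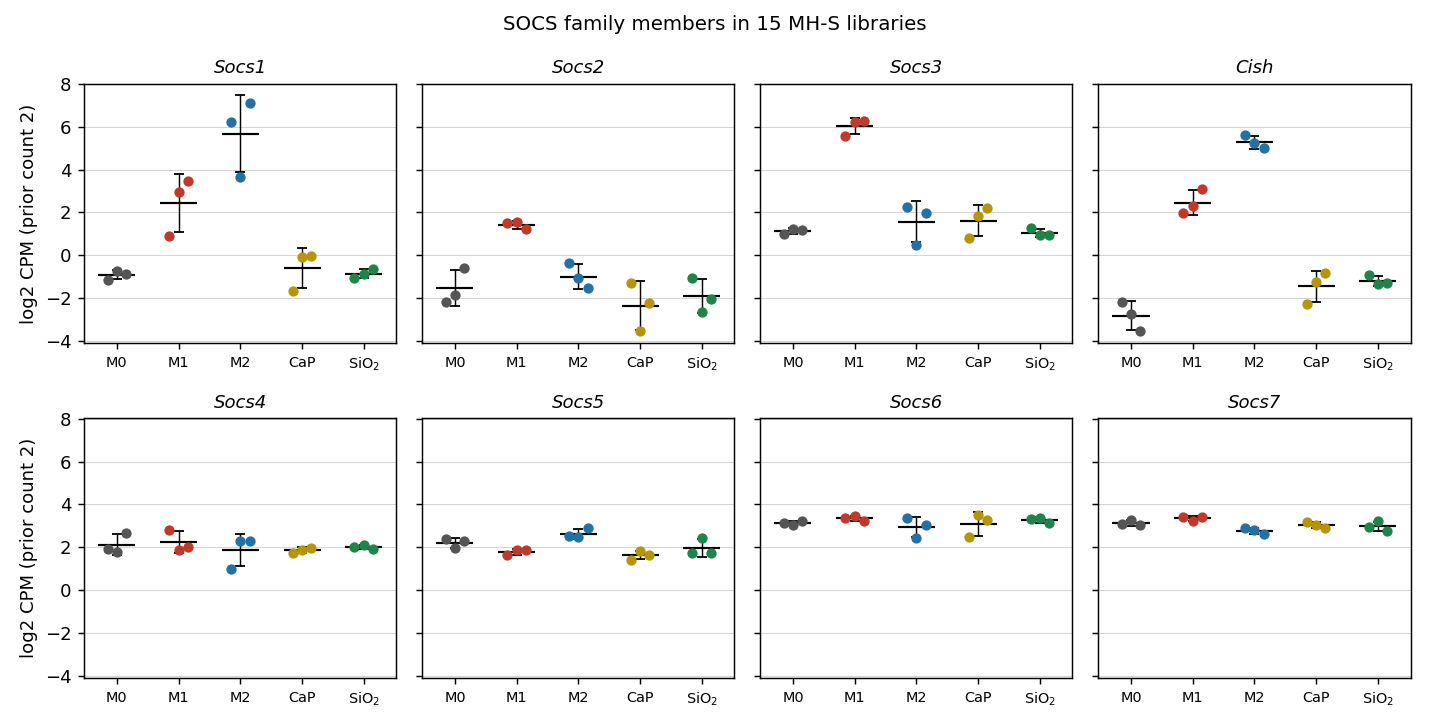
Level of each SOCS family member in log2 CPM (prior count 2) in the 15 libraries. Points stand for libraries, horizontal lines for the mean of the 3 libraries in a group and error bars for their SD. *Socs1* and *Cish* were highest in M2, *Socs2* and *Socs3* in M1, and the 4 remaining members stayed within 1.91 to 11.1 CPM.

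Scaled for transcript length (counts divided by kilobases of exon and brought to the same total in every library, so that genes can be compared), the 8 members together reached 6.28 to 8.38 in M0, 35.6 to 57.4 in M1 and 21.9 to 73.5 in M2. With CaP microrods the sum was 4.35 to 8.46 and with SiO2 microrods 6.01 to 8.30, both overlapping M0. The sum over *Socs4* to *Socs7* stayed between 3.40 and 6.88 over all 15 libraries, so the polarized sums grew through the other 4 genes. *Socs1*, *Socs2*, *Socs3* and *Cish* made up 18.4% to 22.5% of the family level in M0, 81.7% to 89.4% in M1 and 80.5% to 92.8% in M2. They made up 21.8% to 36.8% with CaP and 17.1% to 24.8% with SiO2 microrods. Within the polarized groups different members led. *Socs3* held 71.5% to 75.9% of the family level in the M1 libraries. In M2, *Socs1* held 56.9%, 22.7% and 76.3% in replicates 1, 2 and 3, and *Cish* held 29.3%, 54.3% and 14%.

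**Figure D2:**
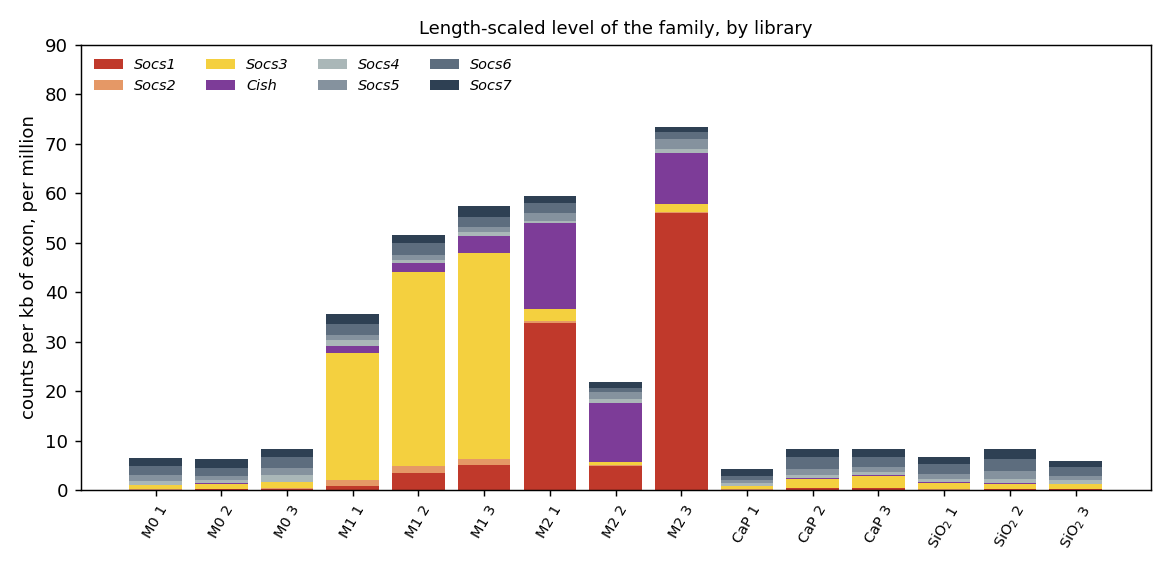
Length-scaled level of the SOCS family (counts per kilobase of exon, brought to the same total) in each of the 15 libraries, stacked by member. M0 and microrod libraries reach at most 8.46, while *Socs3* fills most of the M1 bars and *Socs1* with *Cish* most of the M2 bars.

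*Cish* had the widest range of the family. Its M0 libraries held 5, 1 and 0 counts, which are 0.132, 0.0650 and 0 CPM, and the library without a count allows up to 0.348 CPM (3 counts). In M1 it reached 3.87, 4.79 and 8.55 CPM, and in M2 48.7, 37.5 and 31.9 CPM. The 3 groups did not overlap, and all M2 libraries lay above all M1 libraries. The log2FC over M0 was 8.61 (standard error, SE, 0.51, adjusted p = 3.08e-08 from edgeR) in M2 and 5.82 (SE 0.57, adjusted p = 3.17e-06) in M1. M0 held 6 counts in all, so these sizes rest on few control counts. The pooled level was 362-fold higher in M2 (exact 95% interval 166 to 988, counting error only) and 57.4-fold higher in M1 (25.9 to 158), and leaving out M0 replicate 1, which carried 5 of the 6 counts, moved the log2FC to 9.69 and 6.89.

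*Socs1*, whose product inhibits JAKs bound to interferon and IL-4 receptors, followed the same order of groups with a far larger spread. Its levels were 0.369, 0.520 and 0.463 CPM in M0, 1.81, 7.66 and 10.9 in M1, and 75.3, 12.5 and 139 in M2. Every M2 library exceeded every M1 library, though M2 replicate 2 lay close to M1 replicate 3. The log2FC over M0 was 7.47 in M2 (SE 0.95, adjusted p = 4.04e-04 from edgeR), moving to 7.99 without M2 replicate 2 and to 6.69 without M2 replicate 3. In M1 it was 3.97 (SE 0.98, adjusted p = 0.0152), and that call was lost without M0 replicate 1 (adjusted p = 0.0905) or without M1 replicate 3 (adjusted p = 0.0575).

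*Socs3*, the feedback inhibitor of gp130 receptors such as those of IL-6, was highest in M1. Its levels were 48.2, 75.3 and 76.5 CPM there against 1.90, 2.28 and 2.20 in M0, a log2FC of 4.99 (SE 0.41, adjusted p = 2.07e-06 from edgeR). The lowest M1 library stood far above every library of the other groups. In M2 it had 4.71, 1.32 and 3.82 CPM, which overlapped M0, and the log2FC of 0.75 (SE 0.42, adjusted p = 0.388) did not pass the test. The direct contrast of M1 over M2 gave a log2FC of 4.24 (SE 0.39, adjusted p = 3.83e-06).

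*Socs2*, which restrains growth hormone receptor signalling, was measurable mainly in M1. It held 32, 42 and 23 counts there, or 2.75, 2.87 and 2.24 CPM, against 5, 3 and 5 counts in M0, or 0.132, 0.195 and 0.579 CPM. The M1 libraries were all above the M0 libraries, with a log2FC of 3.56 (SE 0.57, adjusted p = 5.91e-04 from edgeR) that moved to 2.92 without M0 replicate 1. In M2 the levels of 0.682, 0.395 and 0.258 CPM overlapped M0 (log2FC 0.73, adjusted p = 0.681). In RefSeq the span of the long noncoding gene *Gm33230* overlaps that of *Socs2*, and the span of *Gm30510* that of *Socs5*. Whether their exons overlap was not examined. There is no statement on strand in counting, so reads from any shared exon could not be told apart.

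*Socs4* to *Socs7*, linked to growth factor and insulin receptors more than to cytokines, were expressed in every library. *Socs6* and *Socs7* had the higher CPM, with group means of 7.90 to 10.1 and 6.71 to 10.1, and *Socs4* and *Socs5* the lower, with 3.57 to 4.82 and 3.01 to 6.13. Between the polarized groups and M0, 3 of their differences had libraries that did not overlap but missed the test. *Socs5* had 3.01 to 3.60 CPM in M1 and 5.40 to 7.40 in M2 beside 3.77 to 5.06 in M0 (log2FC -0.44 and 0.46, adjusted p = 0.296 and 0.355 from edgeR). *Socs7* had 6.0 to 7.30 CPM in M2 beside 7.99 to 9.56 in M0 (log2FC -0.38, adjusted p = 0.296). Counting all members, 5 of 8 had M1 libraries apart from the M0 libraries, as did 32.2% of all genes, and 4 of 8 had M2 libraries apart, as did 15.2%.

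The contrast of M1 with M2 asks how the 2 polarizing stimuli differ. *Socs2*, *Socs3* and *Socs7* were higher in M1 and *Socs1*, *Socs5* and *Cish* higher in M2, 6 of 8 members against 16.1% of all genes called (10.6% higher and 5.46% lower in M1). *Cish* was lower in M1 by a log2FC of -2.79 (SE 0.32, adjusted p = 9.94e-06 from edgeR) and *Socs1* by -3.50 (SE 0.70, adjusted p = 0.00355), while *Socs2* was higher by 2.84 (SE 0.51, adjusted p = 0.00108). The *Socs1* value moved to -4.10 without M2 replicate 2 and to -2.73 without M2 replicate 3, and in a fit of the 6 M1 and M2 libraries alone its adjusted p was 0.0619. That of *Socs2* moved to 2.18 without M2 replicate 3. The calls of *Socs5* (log2FC -0.89, adjusted p = 0.0268) and *Socs7* (log2FC 0.61, adjusted p = 0.0358) were slight. That of *Socs5* was lost when M1 replicate 1, 2 or 3 or M2 replicate 3 was left out (adjusted p = 0.0983, 0.0710, 0.0647 and 0.148). That of *Socs7* was lost when any 1 of the 6 libraries was left out (adjusted p = 0.0535 to 0.161). The ratio of *Socs1* to *Cish* in CPM was 0.467, 1.60 and 1.27 in M1 and 1.54, 0.333 and 4.35 in M2, which overlapped.

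**Figure D3:**
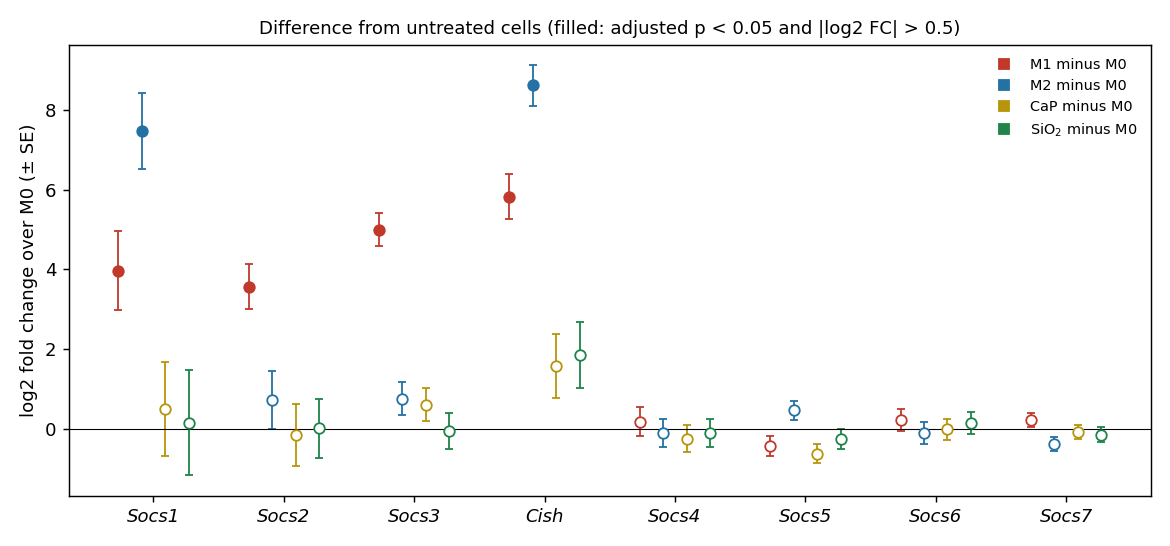
Log2 fold change over M0 with its standard error for each SOCS family member under the 4 treatments, filled where edgeR called it. Filled points are *Socs1*, *Socs2*, *Socs3* and *Cish* in M1 and *Socs1* and *Cish* in M2, while every microrod point is open.

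No member was called with microrods against M0. With CaP microrods 0 of 8 members were called against M0 by edgeR or DESeq2 (0.654% and 2.77% of all genes were called). With SiO2 microrods 0 of 8 were called by either (0.264% and 0.781%). In each, 1 member had an unadjusted p below 0.05 from edgeR, as did 15.8% of all genes with CaP and 8.17% with SiO2. With CaP this was *Socs5*, at 2.58, 3.42 and 3.04 CPM against 5.06, 3.77 and 4.86 in M0. Its libraries did not overlap with those of M0, and the log2FC was -0.63 (SE 0.24, unadjusted p = 0.0215, adjusted p = 0.243 from edgeR). With SiO2 it was *Cish*, at 0.440, 0.303 and 0.317 CPM against 0 to 0.132 in M0, with a log2FC of 1.85 (SE 0.84, unadjusted p = 0.0425, adjusted p = 0.584 from edgeR). These libraries held 9, 4 and 8 *Cish* counts, and 2 of them lie below the 0.348 CPM that the M0 library without a count allows, so a gap between the groups is not established. With CaP, *Cish* had 0.123, 0.329 and 0.473 CPM (log2FC 1.57, 95% interval -0.16 to 3.31, adjusted p = 0.352 from edgeR). Leaving out M0 replicate 1 moved the log2FC to 2.65 with CaP and 2.94 with SiO2, and leaving out CaP replicate 3 moved that of CaP to 0.86, none of them called. Pooled over libraries, *Cish* was 2.98-fold higher than M0 with CaP (1.22 to 8.75) and 3.68-fold higher with SiO2 (1.44 to 11.2), intervals that cover counting error only. By the levels as counted, 1 member of 8 had libraries apart from M0 in each microrod group, as did 17.4% of all genes with CaP and 18% with SiO2.

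The 4 genes that rose in M1 had low levels with either microrod. *Socs3* had 1.66, 3.48 and 4.51 CPM with CaP and 2.30, 1.82 and 1.86 with SiO2, both overlapping its M2 libraries. *Socs1* had 0.226 to 0.897 CPM with CaP and 0.392 to 0.555 with SiO2. *Socs2* had at most 0.392 CPM, also overlapping M2, and CaP replicate 2 had no *Socs2* count, which allows up to 0.197 CPM. Against M1, 4 of 8 members were lower with CaP (9.11% of all genes were called lower and 12.7% in either direction) and 4 with SiO2 (7.67% and 10.5%), namely *Socs1*, *Socs2*, *Socs3* and *Cish*. Against M2, *Socs1*, *Socs5* and *Cish* were lower with CaP, 3 of 8 members (1.99% of all genes lower, 4.46% in either direction). Of these, *Socs5* had the largest adjusted p (log2FC -1.08, adjusted p = 0.0157 from edgeR). Called members fell to 2 without a filter, in those 6 libraries alone and after thinning (1.49% to 3.32% of all genes). The same held without M2 replicate 3, CaP replicate 1 or CaP replicate 3 (2.96% to 4.3%). With SiO2, *Socs1* and *Cish* were lower than in M2, 2 of 8 (1.56% and 3.65%). Between the microrods, 0 of 8 members were called by edgeR or DESeq2 (0.018% and 0.102% of all genes) and 0 had an unadjusted p below 0.05 from edgeR (1.66%). The log2FC of CaP over SiO2 ran from -0.37 to 0.66, the highest being *Socs3*, with a 95% interval of -0.20 to 1.53. The number of libraries leaves room for differences of that size.

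Placed in order, *Socs1* and *Cish* ran from M2 to M1 to the remaining 3 groups, both steps passing the test in the main fit. The steps of *Socs1* were less sure. Its M2 to M1 step had an adjusted p of 0.0619 from edgeR in those 6 libraries alone. Its call in M1 over M0 was lost without M0 replicate 1 or M1 replicate 3. Against M1, the called members with SiO2 fell from 4 to 3 in some fits that left out a library. *Socs3* and *Socs2* stood in M1 above the next group, M2, and the order of M2, the microrod groups and M0 was not resolved. For *Socs4* to *Socs7* no neighbours in the order of groups differed by the test.

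The 2 lead genes of M2 did not follow each other between its libraries. In replicate 2, *Socs1* lay 3.02 log2 units below the mean of the other two libraries, *Socs3* lay 1.63 below and *Cish* 0.07 below. Known STAT6 target genes differed from the other libraries in both directions there. *Arg1*, the arginase of IL-4-treated macrophages, had 1724, 1545 and 1382 CPM in replicates 1 to 3, and *Mgl2*, a galactose-type lectin, had 584, 451 and 433. *Cd209a*, a C-type lectin gene, was higher in replicate 2, with 17.2, 44.1 and 13.3 CPM, and *Egr2*, a transcription factor gene, was lower, with 9.35, 3.55 and 7.47. Over 13 STAT6 target genes the median difference of replicate 2 from the other two libraries was -0.00 log2 units, with 7 genes lower. Over 10 STAT5 target genes it was -0.43 with 9 lower, and over 11 STAT3 target genes -0.23 with 9 lower. The difference over all genes was not taken, so whether these shifts are particular to the lists was not tested. In M1, replicate 1 lay 2.29 log2 units below the others for *Socs1* and 0.65 below for *Socs3*. The part of the low scaling factor of M2 replicate 2 in its values was not tested.

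**Figure D4:**
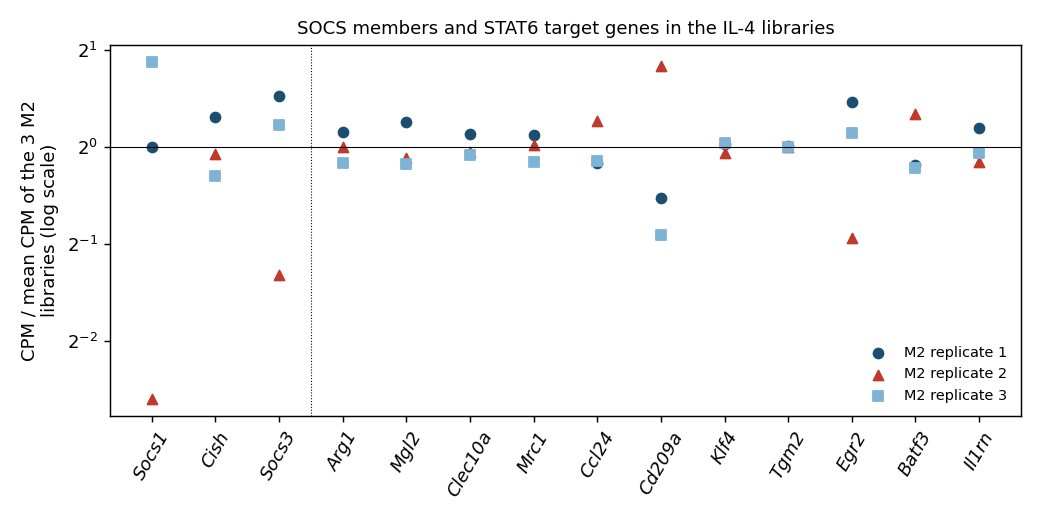
Level of *Socs1*, *Cish*, *Socs3* and STAT6 target genes in the 3 M2 libraries, as CPM divided by each gene's mean over these libraries (logarithmic axis). STAT6 target genes with a mean of at least 5 CPM are shown. In CPM, *Socs1* ran from 12.5 to 139, while *Arg1* stayed between 1382 and 1724.

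The receptors, kinases and STATs on which SOCS proteins act gave the next comparison, to be read beside the 14.1% of all genes called in M1 and the 4.13% called in M2. Of 24 receptor genes tested, 0 were higher and 5 lower in M1 (20.8% called, median log2FC -0.01, all genes -0.01), among them *Ifngr1*, the ligand-binding chain for IFN-γ, at 55.7 ± 2.26 CPM (SD, n = 3) against 113.7 ± 12.4 in M0 (log2FC -1.03, adjusted p = 0.00197 from edgeR), and *Csf2rb2* (log2FC -1.16). In M2, 1 was higher and 3 lower (16.7%, median 0.07, all genes 0.07), with *Lifr*, a partner of gp130, higher by 2.83 and *Il13ra1*, which pairs with the IL-4 receptor, lower by a log2FC of -1.42. *Il4ra* itself had 3.66 ± 2.03 CPM in M2 and 4.41 ± 0.767 in M0 and was not called. Of 10 JAK and STAT genes, 5 were higher and 0 lower in M1 (50%), with a median log2FC of 0.78 against -0.01 over all genes. Among them were *Tyk2* (1.71) and *Jak2* (1.63), *Tyk2* varying widely between its M1 libraries (28.5 ± 22.1 CPM). In M2, 0 of 10 were called, with a median of 0.45 against 0.07 over all genes. With either microrod 0 of the 24 receptor genes and 0 of the 10 JAK and STAT genes were called, beside 0.654% of all genes with CaP and 0.264% with SiO2. At such shares 0 calls are no result for lists of this size.

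The SOCS box works through elongins, cullin 5 and their partners, whose genes were counted next. Over all genes the shares called were 14.1% in M1, 4.13% in M2, 0.654% with CaP and 0.264% with SiO2. At these shares, 0 calls in the lists below are no result. Of 9 ligase partners, including *Elob* (elongin B) and *Cul5*, 0 were called in M1, M2 or with either microrod, *Elob* having 680 ± 49.2 CPM in M1, 773 ± 118 in M2 and 736 ± 35.0 in M0. A further list of 18 genes mixed inhibitors of these receptors with other regulators of signalling. Of these 18, 4 were higher and 1 lower in M1 (27.8%, median log2FC 0.26) and 1 higher in M2 (5.56%, median 0.21). *Usp18*, which blocks type I interferon receptor signalling, rose from 3.02 ± 0.627 CPM in M0 to 17.9 ± 3.50 in M1 and 22.7 ± 3.54 in M2 (log2FC 2.60 and 2.95, adjusted p = 1.40e-05 and 1.32e-05 from edgeR), and was the only one called in M2. *Isg15*, the ubiquitin-like protein that USP18 removes, rose in M1 (log2FC 3.42), and 0 of the 18 were called with either microrod. Of 10 SOCS substrates outside the receptors, *Tirap*, an adaptor of Toll-like receptors that SOCS1 binds, was the only one called in M1 (log2FC -0.83) and in M2 (-0.78), in both lower (10% of the list each), and 0 were called with the microrods.

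Of 19 ligands listed, 11 passed the filter and were tested. Among these, 8 were higher and 2 lower in M1 (90.9% against 14.1% of all genes). *Il6* had 51.4 ± 5.12 and *Csf3* 235 ± 52.9 CPM there against near 0 in M0. Outside M1 both had group means of at most 0.455 CPM, so they passed the filter through M1. The share called in M1 is thus partly set by the filter. In M2 only *Igf1* was called (9.09% against 4.13%), with 475 ± 108 CPM against 46.9 ± 2.61 (log2FC 3.34). With CaP microrods *Csf1*, the macrophage growth factor, was the only one called, at 5.15 ± 1.82 CPM against 0.408 ± 0.129 (log2FC 3.56, adjusted p = 0.00112 from edgeR), and with SiO2 0 were. Of all genes, 0.654% were called with CaP and 0.264% with SiO2.

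Target genes of 3 STATs were counted from lists for comparison with the SOCS genes. Of all genes, 14.1% were called in M1, 4.13% in M2, 0.654% with CaP and 0.264% with SiO2 microrods. In M2, 6 of 13 STAT6 targets were higher and 0 lower (46.2%, median log2FC 1.80, all genes 0.07), 1 of 10 STAT5 targets was higher and 1 lower (20%, median 0.27), and 1 of 11 STAT3 targets was higher and 2 lower (27.3%, median -0.42). In M1, the numbers were 4 higher and 4 lower for STAT6 (61.5%, median -0.58, all genes -0.01), 5 and 2 for STAT5 (70%, median 1.11), and 8 and 0 for STAT3 (72.7%, median 1.61). In M2, where *Cish* was highest, *Bcl2* was the STAT5 target called higher (log2FC 1.15) and the cyclin gene *Ccnd2* the one called lower (-0.71). The kinase gene *Pim2*, of the same list, was called higher in M1 (log2FC 4.46) but was not called in M2. With CaP microrods 1 STAT6 target was higher and 1 lower, 2 STAT3 targets were higher and 0 STAT5 targets were called. With SiO2 microrods 1 STAT6 and 1 STAT3 target were higher. *Il1rn*, the IL-1 receptor antagonist, stands in both the STAT6 and the STAT3 list and was higher with CaP (log2FC 2.41) and SiO2 (1.64), while *Nfil3* was higher with CaP (0.92).

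Genes with a course over the 15 libraries like that of the members were sought among 11310 genes, as a description that rests mainly on the M1 and M2 libraries. *Cish* was followed most closely by *Nfil3*, a leucine zipper transcription factor (Pearson's r = 0.968), *Usp18* (0.936) and *Socs1* (0.935). *Nfil3* had mean levels of 5.59 CPM in M0, 18.2 in M1, 36.2 in M2, 10.5 with CaP and 8.86 with SiO2. *Socs1* was followed by *Ltb4r1*, a leukotriene B4 receptor (0.935), *Cish* (0.935) and *Gm15922* (0.927). *Socs3* was followed by *Aqp9*, a glycerol channel (0.980), *Ccl22*, a chemokine (0.977), and *Mmp9*, a matrix protease (0.9747), each highest in M1. Between members, r over the 15 libraries was 0.935 for *Socs1* with *Cish*, 0.809 for *Socs2* with *Socs3* and 0.356 for *Socs1* with *Socs3*.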

How the data were processed

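RNA from 15 wells of MH-S cells was sequenced as Smart-seq2 libraries, without molecular identifiers. The authors deposited 1 table of whole-number counts per gene, not normalized, made with a STAR and Salmon pipeline and an Ensembl annotation (build GRCm39, per the labels), so counts may be rounded estimates. Symbols and exon lengths came from GENCODE vM21 (GRCm38), with a symbol for 51487 of 78317 identifiers and a length for 95.9% to 97.7% of each library's counts.

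Genes were filtered with filterByExpr, scaled by TMM and tested in edgeR 4.0.16 (quasi-likelihood F test, all 15 libraries, group as the only term), with Benjamini-Hochberg adjustment over 16654 genes. A call needed an adjusted p below 0.05 together with a log2 fold change beyond 0.5 in size, as in the study. CPM use TMM-scaled library sizes. Errors of CPM are SDs over 3 libraries. Replicates differed by more than counting error in all 15 pairs. Exact permutation of 3 against 3 libraries cannot go below p = 0.1 and was not used.

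The members, the pathway lists and the markers were chosen with earlier results of these data known. Of each list, up to 2 called genes per comparison were named, by absolute log2 fold change among genes with at least 5 CPM in a group. *Il4ra*, *Elob*, *Cul5* and, for M2, *Pim2* were named beyond that rule, after their values were seen, as were *Cd209a* and *Egr2*. *Ccnd2*, *Bcl2* and, for M1, *Pim2* fall under the rule but were also picked after their values were seen. For the 3 members with the widest range, 3 genes of like pattern were named. *Il1rn*, *Osm* and *Il4ra* stand in 2 lists each. Some listed genes are not reported here. Scripts were tested on simulated data. Alternatives were DESeq2 1.42.0, its size factors, other count filters, smaller sets of libraries, thinning, a replicate block, omission of each library and, added after the data were seen, the older quasi-likelihood setting.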

Additional observations from a re-analysis of the deposited data

How the results depend on the processing

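Counts of called members stayed within 1.5 times of those given above under all alternatives except 2. Requiring at least 10 counts in every library removed *Socs1*, *Socs2* and *Cish* from the test by construction. Of the 5 members left, 1 was called in M1 against M0 (14.4% of all genes), 0 in M2 against M0 (4.39%), 3 in M1 against M2 (15.4%), 1 with CaP and 1 with SiO2 against M1 (11.8% and 9.78%), and 1 with CaP and 0 with SiO2 against M2 (3.96% and 3.41%). A fit of the 6 M1 and M2 libraries alone gave 3 called members in place of 6 (9% of all genes). The cause of the latter was not tested.

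Leaving out 1 library at a time gave 3 to 4 called members in M1 against M0 (8.87% to 12.1% of all genes), 2 in M2 against M0 (1.85% to 7.95%), 4 to 5 in M1 against M2 (10.3% to 24.9%), 3 to 4 with either microrod against M1 (6.52% to 12.7%), 2 to 3 with CaP against M2 (2.96% to 4.59%), 2 with SiO2 against M2 (2.19% to 4.19%), and 0 for microrods against M0 or each other. Signs that turned all belonged to differences that were not called, and the cause was not tested. They were, for CaP against M0, *Socs1* (-0.057 to 1.03), *Socs2* (-1.25 to 0.35), *Socs4* (-0.41 to 0.0025) and *Socs6* (-0.20 to 0.24). For SiO2 against M0 they were *Socs1* (-0.082 to 0.28), *Socs2* (-0.74 to 0.52), *Socs3* (-0.18 to 0.0044) and *Socs4* (-0.25 to 0.15). For CaP against SiO2 they were *Cish* (-0.99 to 0.24), *Socs1* (-0.21 to 0.88), *Socs2* (-1.27 to 0.57), *Socs6* (-0.34 to 0.10) and *Socs7* (-0.055 to 0.17). For the polarized groups they were *Socs4* (-0.19 to 0.43 in M1 against M0, -0.43 to 0.18 in M2 against M0, -0.067 to 0.60 in M1 against M2) and *Socs6* (-0.30 to 0.076 in M2 against M0). With all libraries kept, *Socs2* with SiO2 against M0 turned to -0.26 in DESeq2, -0.0069 without a filter and -0.16 under the older quasi-likelihood setting, and *Socs6* with CaP to 0.0070 without a filter.

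Same-numbered libraries deviated together between some groups and not others. All 3 pairs of M0 with M1 (0.206 to 0.292) and of M2 with SiO2 microrods (0.128 to 0.506) had a correlation above 0.1, as had 14 of all 30 pairs (range -0.704 to 0.604), and 8 of 15 libraries correlated best with their own number. The labels give the numbers no shared origin, so this is a hint from the data. With the replicate number as a block, no call of a member in M1 against M0 changed, and 4 members were called there (12.7% of all genes). Called were also 2 in M2 against M0 (3.03%), 5 in M1 against M2 (14.2%) and 2 with SiO2 against M2 (3.1%). Against M0, 0 were called with CaP (0.354%) or SiO2 (0.114%), and *Socs1* with SiO2 turned to -0.16. The call lost was that of *Socs7* in M1 against M2 (adjusted p = 0.0514 from edgeR), which was also lost without a filter, in the 6 libraries alone and after thinning (adjusted p = 0.416, 0.157 and 0.0701), as that of *Socs5* was without a filter and in the 6 libraries (0.0874 and 0.0728).

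Depth limits *Cish*, *Socs1* and *Socs2* outside the polarized groups, where libraries held 0 to 36 counts.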
